A study of Mus musculus with 39 samples.

Results

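The genes described here are 9 immediate early genes of the mouse, namely Egr1, Egr2, Egr3, Nr4a1, Nr4a2, Nr4a3, Ier2, Ier3 and Ier5. Every probe set that the array annotation pairs with exactly 1 of these symbols was taken, whatever its level, which gave 20 probe sets of the 34945 that are named by 1 gene, and 9 genes of 18193. Nr4a2 had 6 probe sets, Nr4a3 and Ier5 had 3 each, Egr2 and Egr3 had 2 each, and Egr1, Nr4a1, Ier2 and Ier3 had 1 each. A probe set is a group of short oligonucleotides on the array that together report 1 transcript.

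RNA was measured on 39 Affymetrix arrays, 1 for each sample, from B6C3F1 mice, a hybrid laboratory strain. Liver gave 8 vehicle and 8 hypoxia samples, bone marrow 3 and 4, and spleen 8 and 8. Hypoxia was reduced oxygen for 2 hours, and the groups called vehicle are the controls of the same time, tagged as control in the labels, with no substance named. No age, sex, oxygen level or genetic change is given in the labels. Mice of all groups were killed under ketamine and acepromazine anaesthesia before tissue was taken from the humerus, the left lateral liver lobe and the spleen, so no group is free of those drugs. The labels do not say whether replicates came from separate mice, so p-values measure only the spread between these samples, which may be technical. In whole tissue, fewer cells of a type and less RNA per cell cannot be told apart.

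Immediate early genes are transcribed within minutes of a stimulus from factors that are already in the cell, such as serum response factor and CREB, without new protein synthesis. Egr1, Egr2 and Egr3 encode zinc finger transcription factors that bind GC-rich sites, and the NAB proteins act as their corepressors. Nr4a1, Nr4a2 and Nr4a3 encode orphan nuclear receptors that act in hepatic glucose production and in lymphocytes after antigen receptor signals. The Ier genes are named for their rapid induction alone and encode unrelated or loosely related proteins: Ier3 (also called IEX-1) acts in cell survival, and Ier2 and Ier5 share an N-terminal region, with Ier5 linked to heat shock factor and protein phosphatase 2A.

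The starts of 4 of these genes are shown, chosen for their changes below. Ier3 rose in liver and spleen, Egr2 moved oppositely in bone marrow and spleen, Nr4a1 rose in liver and bone marrow, and Ier5 fell. Whether the sequences play a part in these changes was not tested. Each is the 250 bases before an annotated transcription start in the RefSeq table for mouse (GRCm38.p6), read 5′ to 3′ on the gene's strand. Capitals mark matches to the motifs searched.
Egr2 (chr10:67537619-67537868, plus strand): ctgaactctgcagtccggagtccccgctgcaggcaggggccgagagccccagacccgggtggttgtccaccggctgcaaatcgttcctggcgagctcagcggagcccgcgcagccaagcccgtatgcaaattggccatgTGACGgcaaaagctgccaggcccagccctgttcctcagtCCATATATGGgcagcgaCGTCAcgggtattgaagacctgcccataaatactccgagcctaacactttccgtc
Nr4a1 (chr15:101266596-101266845, plus strand): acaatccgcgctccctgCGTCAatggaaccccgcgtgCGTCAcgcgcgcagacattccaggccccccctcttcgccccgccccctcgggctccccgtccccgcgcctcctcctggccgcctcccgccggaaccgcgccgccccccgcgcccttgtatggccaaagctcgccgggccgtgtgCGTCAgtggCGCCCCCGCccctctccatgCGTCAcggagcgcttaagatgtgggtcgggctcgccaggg
Ier3 (chr17:35821463-35821712, plus strand): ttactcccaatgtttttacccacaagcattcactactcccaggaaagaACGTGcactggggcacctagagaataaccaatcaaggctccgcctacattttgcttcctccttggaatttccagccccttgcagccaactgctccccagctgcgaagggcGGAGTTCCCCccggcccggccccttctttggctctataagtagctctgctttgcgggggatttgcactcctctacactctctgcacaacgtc
Ier5 (chr1:155099637-155099886, minus strand): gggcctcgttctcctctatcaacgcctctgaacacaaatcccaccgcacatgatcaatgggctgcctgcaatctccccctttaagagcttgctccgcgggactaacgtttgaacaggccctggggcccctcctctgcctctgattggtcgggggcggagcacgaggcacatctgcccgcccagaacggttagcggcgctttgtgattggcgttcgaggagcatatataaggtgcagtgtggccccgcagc
Windows were used for 6 of the 9 genes, 10 windows in all, of which 5 belong to Egr2. Egr1 lies on a chromosome whose windows were left out for the 9 genes, and the table held none for Egr3 and Ier2.

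Both strands of each window were searched for 7 motifs: the CArG box of serum response factor, the CRE core TGACG, the EGR site GCGTGGGCG or GCGGGGGCG, the NR4A site AAAGGTCA, the AP-1 site TGACTCA or TGAGTCA, the hypoxia core ACGTG, and the NF-kappaB site. The Egr2 window shown held a CArG box at -72 to -63, counted from the start site, and 2 CRE cores. Of the other 4 Egr2 windows, 3 held a CArG box, 2 of them with the same CRE cores since they overlap the one shown. The Egr2 window farthest upstream (chr10:67535249-67535498) held neither, but 2 overlapping matches to the hypoxia core, at -27 to -23 and -26 to -22, and 2 overlapping NF-kappaB matches. The Nr4a1 window held 4 CRE cores and 1 EGR site, at -60 to -52. In the Ier3 window there was 1 hypoxia core, at -202 to -198, and 1 NF-kappaB site, at -92 to -83. The Ier5 window held none of the 7, which says only that these letters are not in its 250 bases. The Nr4a2 and Nr4a3 windows held 4 CRE cores each, and in Nr4a3 the only hypoxia core overlapped one of them. Of all 32851 windows of this length, 1.47% held a CArG box, 17.8% a CRE core, 3.06% an EGR site, 1.34% the NR4A site, 4.46% an AP-1 site, 16.6% a hypoxia core and 7.25% an NF-kappaB site. A match is a description of the sequence and not a measured binding site.

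Levels are log2 of the deposited intensity, and a change is the hypoxia mean minus the vehicle mean on that scale, with ± giving its standard error. A probe set was said to rise or fall when limma's adjusted p was under 0.05, over the 34945 probe sets. Across tissues the array medians differed, from 5.21 to 5.33 in liver against 6.16 to 6.29 in the other two, so levels in different tissues are set side by side without a test. Tissue identity held against marker genes: the median log2 level of 7 hepatocyte markers was 14.5 in liver vehicle samples, against 4.92 in bone marrow and 5.85 in spleen, that of 8 neutrophil markers was 14.7 in bone marrow, and that of 7 B cell markers was 11.96 in spleen. By the log2 of the summed hepatocyte markers, vehicle spleen replicate 4 stood at 10.23 and the other vehicle spleens at 8.42 to 8.93. Vehicle livers were at 17.24 or above. The log2 difference between 3′ and 5′ control probe sets for GAPDH and actin is a sign of RNA integrity. It did not separate hypoxia from vehicle in any tissue after adjustment. The smallest exact permutation p was 0.0451 (two-sided), for actin in spleen, and 0.270 after adjustment over 6 tests.

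The 9 genes did not move as a group. Of the 20 probe sets, 1 rose and 7 fell in spleen, 2 rose and 1 fell in liver, and 3 rose and 1 fell in bone marrow. Over all probe sets tested, 3.21% rose and 4.29% fell in liver, 1.73% and 2.09% in bone marrow, and 6.02% and 8.58% in spleen. The 7 falls in spleen came from 4 genes: both probe sets of Egr2, 1 of Egr3, 1 of Nr4a3 and all 3 of Ier5. The median change over the 20 probe sets was -0.05 in spleen, 0.03 in liver and -0.02 in bone marrow, against 0.00, -0.01 and 0.00 over all probe sets. Of the 20, the vehicle and hypoxia samples did not overlap for 6 in spleen, 1 in liver and 8 in bone marrow, while over all probe sets that share was 3.83%, 1.99% and 14.7%. Below the 30th percentile of mean level lay 4 of the 20 in spleen, 8 in liver and 5 in bone marrow.

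**Figure D1:**
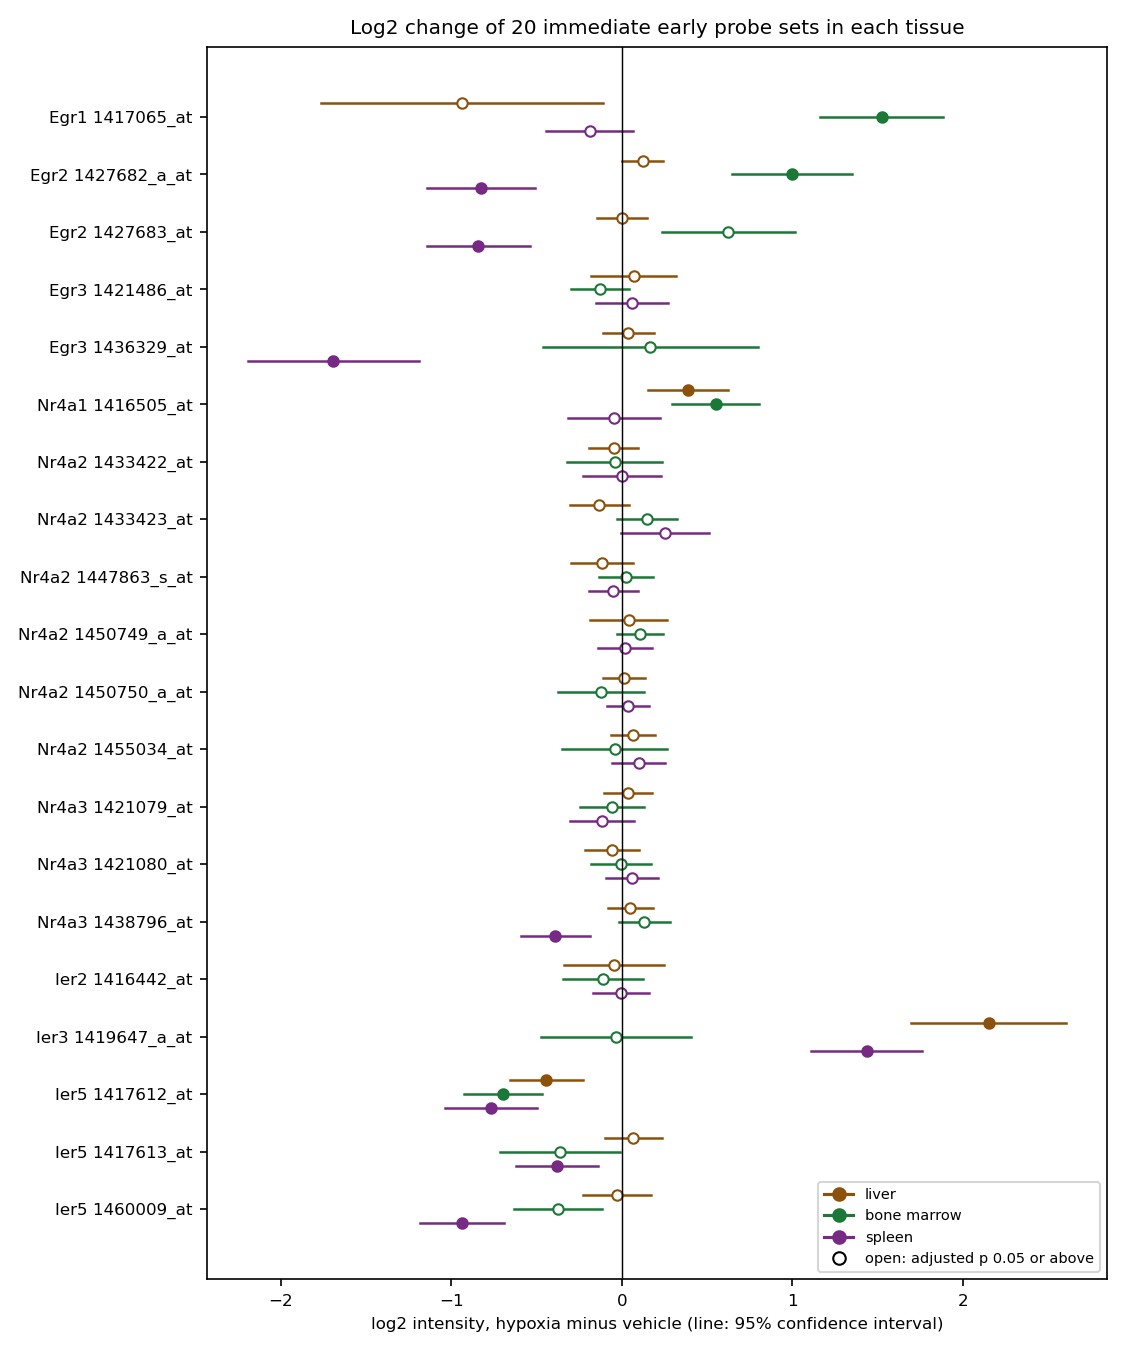
Change in log2 intensity (horizontal axis, hypoxia minus vehicle, with 95% confidence interval) of each of the 20 probe sets (vertical axis) in liver, bone marrow and spleen; filled circles have an adjusted p under 0.05. Ier3 lies far right of 0 in liver (2.15) and spleen (1.44) and near 0 in bone marrow (-0.03), Egr1 is at 1.53 in bone marrow, and Egr3 1436329_at is at -1.69 in spleen.

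Egr1, which encodes a zinc finger factor induced by growth signals and stress, rose in bone marrow. The vehicle samples had log2 intensities of 7.65, 7.92 and 8.02, and the hypoxia samples 9.04, 9.63, 9.62 and 9.27 (probe set 1417065_at). All 4 hypoxia samples lay above all 3 vehicle samples, and the change was 1.53 ± 0.16, or 2.88-fold, with adjusted p = 0.0029 (limma). The call remained when each of the 7 samples was left out in turn, with adjusted p between 0.00348 and 0.0233. Of 8 stromal cell markers 3 rose in the same bone marrow samples (Col3a1, Lum and Dcn). The log2 of the summed intensity of all 8 ran from 14.41 to 14.62 in vehicle and from 14.69 to 14.97 in hypoxia. The part of these markers in the changes of Egr1, Egr2, Nr4a1 and Ier5 in bone marrow was not tested.

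In liver Egr1 pointed the other way and did not pass the test. Vehicle livers ran from 6.63 through a median of 8.98 to 10.28, and hypoxic livers from 7.17 through 7.88 to 8.78. The groups overlapped. Vehicle replicate 4, at 6.63, was the lowest of all 16 samples, with the other vehicle livers at 8.18 or above. Hypoxia replicates 1, 3 and 5, at 8.67, 8.78 and 8.49, also lay above vehicle replicate 5, at 8.18. The change was -0.94 ± 0.40 with adjusted p = 0.184. The replicate numbers were taken to pair the liver samples by their correlation, which the labels do not state. Whether that correlation reflects pairs or the sets of numbers 1 to 4 and 5 to 8 was not tested. With the number as a block the change was -0.94 ± 0.25 with adjusted p = 0.0313. Egr1 did not pass with the number set (1 to 4 or 5 to 8) as a term, nor within either set alone. Hypoxia lay below vehicle in 6 of the 8 pairs. Without vehicle replicate 4 the change was -1.26 with adjusted p = 0.0129. The spread of Egr1 among vehicle livers, an SD of 1.15 (n = 8), was wider than that of 99.95% of all probe sets.

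In spleen Egr1 was high in both groups, with vehicle samples from 9.02 through 9.48 to 9.76 and hypoxia samples from 8.89 through 9.28 to 9.78. They overlapped, and the change was -0.19 ± 0.12 (limma adjusted p = 0.365). By median level the lowest groups were hypoxic liver and vehicle bone marrow, at 7.88 and 7.92, and the highest were hypoxic bone marrow and vehicle spleen, at 9.45 and 9.48, and each group overlapped its neighbour in that order.

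Egr2, a zinc finger factor of myelinating glia and of lymphocytes after antigen signals, rose in bone marrow by 1 of its 2 probe sets and fell in spleen by both. Bone marrow vehicle samples read 4.15, 4.33 and 4.31 for 1427682_a_at, and the hypoxia samples 4.83, 5.44, 5.53 and 5.24. These groups did not overlap, and the change was 1.00 ± 0.15 (limma adjusted p = 0.0135). This probe set was dim in bone marrow, at percentile 24.3 of mean level, against 37.1 for the second. That call ended when vehicle replicate 1, 2 or 3 or hypoxia replicate 2 was left out, with adjusted p up to 0.0591. The second probe set, 1427683_at, was also higher in all 4 hypoxia samples, at 5.74, 5.74, 6.44 and 6.17 against 5.27, 5.48 and 5.44, with a change of 0.63 ± 0.17 that did not pass (adjusted p = 0.0946).

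In spleen the vehicle samples of 1427682_a_at ran from 5.91 through 6.04 to 6.29 and the hypoxia samples from 4.36 through 5.30 to 5.87. The change was -0.82 ± 0.15, a 1.77-fold lower level (limma adjusted p = 0.000978). For 1427683_at the ranges were 6.47 to 6.97 in vehicle and 4.97 to 6.40 in hypoxia, with a change of -0.84 ± 0.14 (limma adjusted p = 0.000507). All 8 hypoxic spleens lay below all 8 vehicle spleens on both probe sets. In liver both were dim, at percentiles 1.94 and 14.3 of mean level, and changed by 0.12 and 0.00, neither past the test.

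Egr3, a factor that acts beside Egr2 in lymphocytes, fell in spleen by more than any other of the 20 probe sets in any tissue. Probe set 1436329_at ran from 8.55 through 9.08 to 9.42 in vehicle spleens and from 5.82 through 7.53 to 8.06 in hypoxic spleens. No hypoxic spleen reached the lowest vehicle spleen, and the change was -1.69 ± 0.24, a 3.23-fold lower level (limma adjusted p = 8.65e-05). Bone marrow samples, at 5.13, 5.73 and 5.68 in vehicle and 5.03, 5.62, 6.30 and 5.79 in hypoxia, overlapped and changed by 0.17 ± 0.28 (adjusted p = 0.808). Liver read 3.23 ± 0.11 (SD, n = 8) in vehicle and 3.27 ± 0.15 in hypoxia, at percentile 4.43 of mean level. The other probe set, 1421486_at, did not follow: it read 7.07 ± 0.21 (SD, n = 8) in vehicle and 7.13 ± 0.21 in hypoxic spleens, and changed by 0.06 in spleen, 0.07 in liver and -0.13 in bone marrow, none past the test.

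**Figure D2:**
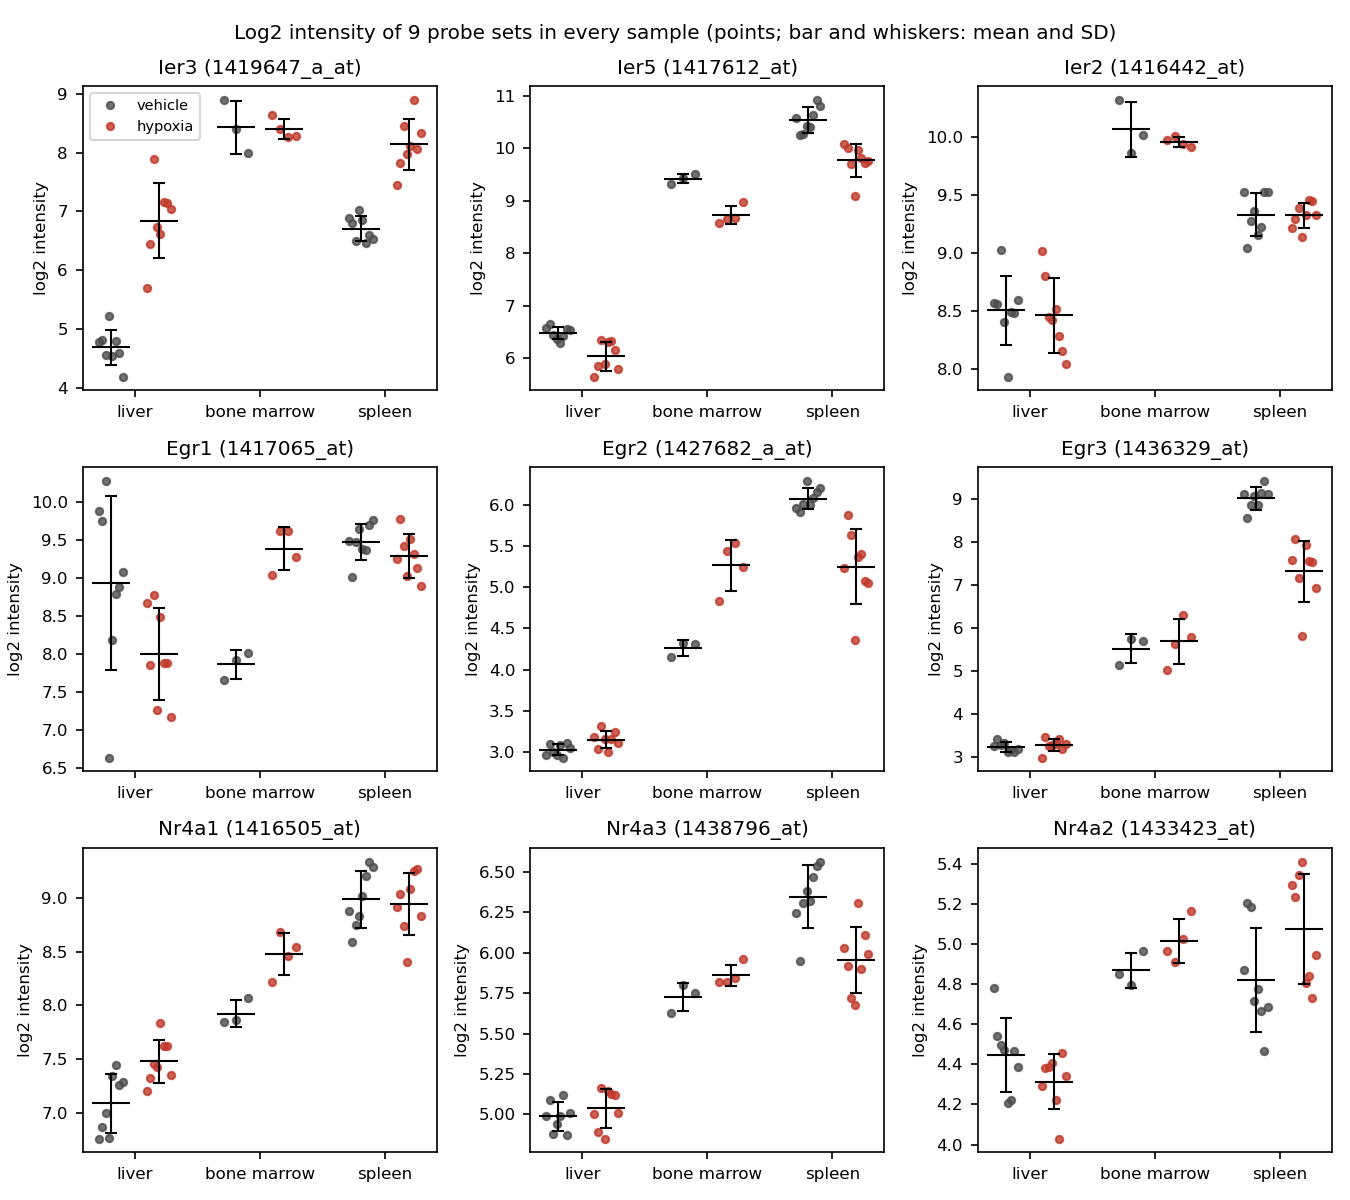
Log2 intensity (vertical axis) in every sample (points) of 9 probe sets, for each gene the one past the test in most tissues (then of smallest p), by tissue, with vehicle in grey and hypoxia in red; the bar is the mean and the whiskers the SD. Ier3 separates vehicle from hypoxia in liver and spleen, Egr1 separates them in bone marrow while its vehicle livers spread from 6.63 to 10.28, and Ier2 overlaps in all 3 tissues.

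Nr4a1 (1416505_at), an orphan nuclear receptor also called Nur77, rose in liver and bone marrow. Vehicle livers ran from 6.77 through 7.13 to 7.45 and hypoxic livers from 7.21 through 7.45 to 7.83. The groups overlapped, but hypoxia lay above vehicle in 8 of the 8 same-numbered pairs, a pairing that the labels do not give. The change was 0.39 ± 0.11, or 1.31-fold (limma adjusted p = 0.0376), and with the number as a block 0.39 ± 0.07 with adjusted p = 0.00289. Without the block this call was near the threshold: it ended in 8 of 16 fits that left out 1 sample (vehicle replicates 1 to 4 and hypoxia replicates 3, 5, 6 and 7, adjusted p up to 0.0792).

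In bone marrow Nr4a1 read 7.84, 7.87 and 8.07 in vehicle and 8.22, 8.68, 8.46 and 8.54 in hypoxia, without overlap. The change was 0.55 ± 0.11, or 1.47-fold (limma adjusted p = 0.0340). That call too was near the threshold, since leaving out any 1 sample but hypoxia replicate 1 ended it, with adjusted p up to 0.124. Spleen held the highest levels, 8.98 ± 0.27 (SD, n = 8) in vehicle and 8.94 ± 0.29 in hypoxia, and changed by -0.04 ± 0.13 (adjusted p = 0.881).

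Nr4a2, the receptor known for its part in dopamine neurons, did not pass the test in any tissue (limma) on any of its 6 probe sets, 1433422_at, 1433423_at, 1447863_s_at, 1450749_a_at, 1450750_a_at and 1455034_at. At an unadjusted p under 0.05 the count was 0 of 6 in each tissue, and the exact Wilcoxon test, run in liver and spleen, also called 0. Its changes lay between -0.05 and 0.25 in spleen, -0.13 and 0.07 in liver, and -0.12 and 0.15 in bone marrow. The largest was that of 1433423_at in spleen, where vehicle ran from 4.46 through 4.74 to 5.20 and hypoxia from 4.73 through 5.09 to 5.41, a change of 0.25 ± 0.12 (limma adjusted p = 0.198). Of the 18 readings of these probe sets (6 in each of 3 tissues), none had groups that did not overlap.

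Nr4a3, the third receptor of the family, fell in spleen on 1 of 3 probe sets. For 1438796_at vehicle spleens ran from 5.95 through 6.35 to 6.56 and hypoxic spleens from 5.68 through 5.96 to 6.31. The groups overlapped, with 4 of 8 hypoxic spleens below every vehicle spleen, and the change was -0.39 ± 0.10, a 1.31-fold lower level (limma adjusted p = 0.00923). In bone marrow the same probe set read 5.63, 5.80 and 5.75 in vehicle and 5.82, 5.82, 5.85 and 5.96 in hypoxia, a change of 0.13 ± 0.07 (adjusted p = 0.349), and in liver it changed by 0.05. The brightest Nr4a3 probe set, 1421080_at, changed by -0.05, -0.01 and 0.06 in liver, bone marrow and spleen, and 1421079_at, dim in all 3, by 0.04, -0.06 and -0.11, none past the test.

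Ier3 had the largest response of the 9 genes in liver and the only rise among them in spleen. Vehicle livers read 4.78, 4.82, 4.56, 5.22, 4.55, 4.80, 4.60 and 4.19, and hypoxic livers 5.71, 6.45, 7.90, 6.73, 6.62, 7.15, 7.14 and 7.04 (1419647_a_at). Every hypoxic liver lay above every vehicle liver, and the change was 2.15 ± 0.22, or 4.44-fold (limma adjusted p = 1.77e-06). In spleen vehicle samples ran from 6.47 through 6.70 to 7.03 and hypoxia samples from 7.46 through 8.09 to 8.90. These groups did not overlap either, and the change was 1.44 ± 0.15, or 2.71-fold (limma adjusted p = 5.49e-06).

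Bone marrow showed no such rise. It read 8.90, 8.40 and 8.00 in vehicle and 8.64, 8.40, 8.27 and 8.29 in hypoxia, a change of -0.03 ± 0.19 with an interval from -0.47 to 0.41 (limma adjusted p = 0.955). By median level, vehicle bone marrow was the highest of the 6 groups at 8.40, hypoxic spleen stood at 8.09, hypoxic liver at 6.88, vehicle spleen at 6.70 and vehicle liver was the lowest at 4.69. Hypoxic spleens overlapped the bone marrow samples in level, and vehicle livers overlapped no other group. Beside the rise in liver, 2 of 8 neutrophil markers, S100a8 and S100a9, rose there. The log2 of the summed intensity of all 8 ran from 7.89 to 8.26 in vehicle and from 7.99 to 9.96 in hypoxia. The summed erythroid markers separated the livers, at 10.91 to 11.34 in vehicle and 11.43 to 11.81 in hypoxia. Of those 6 markers Tfrc, the transferrin receptor, rose by 2.22, Klf1 fell by 0.52 and the other 4 did not pass. Of other cell types' markers Cd14 and Lyve1 rose and Tie1 fell in liver. The part of these markers in the liver changes of Ier3, Nr4a1 and Ier5 was not tested.

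Ier5, linked to heat shock factor activity, was the only 1 of the 9 genes with a fall in all 3 tissues, carried by probe set 1417612_at. Vehicle spleens ran from 10.24 through 10.50 to 10.92 and hypoxic spleens from 9.08 through 9.78 to 10.08, without overlap, a change of -0.77 ± 0.13 or a 1.70-fold lower level (limma adjusted p = 0.000426). Bone marrow read 9.33, 9.43 and 9.51 in vehicle and 8.58, 8.65, 8.68 and 8.98 in hypoxia, again without overlap, and changed by -0.70 ± 0.10 (limma adjusted p = 0.0102). Without vehicle replicate 2 or 3 that call ended, with adjusted p up to 0.0543.

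In liver 1417612_at ran from 6.28 through 6.49 to 6.65 in vehicle and from 5.65 through 6.03 to 6.34 in hypoxia. The groups overlapped, with 5 of 8 hypoxic livers below every vehicle liver, and the change was -0.44 ± 0.10 (limma adjusted p = 0.00903). Within the samples numbered 1 to 4 it was -0.58 (adjusted p = 0.0460) and within those numbered 5 to 8 it was -0.30 (adjusted p = 0.142).

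The other Ier5 probe sets fell in spleen alone, by -0.94 ± 0.12 for 1460009_at, without overlap (limma adjusted p = 2.57e-05), and by -0.38 ± 0.11 for 1417613_at (limma adjusted p = 0.0303). The latter ended in 6 of 16 fits that left out 1 sample, vehicle replicate 1 or 8 or hypoxia replicate 3, 4, 6 or 8, with adjusted p up to 0.0647. In bone marrow all 4 hypoxia samples lay below all 3 vehicle samples on both, with changes of -0.37 and -0.36 that did not pass. In liver they changed by -0.03 and 0.07, with 1460009_at at percentile 4.44 of mean level, so the liver fall rests on 1 probe set.

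Ier2 (1416442_at), named for its rapid induction by serum, was high in all 3 tissues, between percentiles 84.4 and 89.7 of mean level, and passed the test in none (limma; 0 of 3 also at an unadjusted p under 0.05, and 0 by the exact Wilcoxon test in liver and spleen). It read 8.50 ± 0.30 (SD, n = 8) in vehicle and 8.46 ± 0.32 in hypoxic livers. Bone marrow read 10.32, 9.86 and 10.02 in vehicle and 9.97, 10.01, 9.94 and 9.92 in hypoxia, and spleen 9.33 ± 0.19 (SD, n = 8) and 9.33 ± 0.11. The 95% interval of its change was widest in liver, -0.34 to 0.25, then -0.34 to 0.13 in bone marrow, and narrowest in spleen, -0.17 to 0.16.

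The 7 probe sets that fell in spleen shared their lowest hypoxic sample and varied in the order of the rest. Replicate 4 was the lowest of the 8 hypoxic spleens on 7 of 7, and replicate 2 the highest on 4 of 7. Hypoxic replicate 4 was also the lowest of all 16 spleens in the summed B cell markers, at a log2 of 12.8, while the other hypoxic spleens lay between 13.96 and 14.45 and the vehicle spleens between 13.98 and 14.69. The same sample was the lowest of all 16 in the summed T and NK cell markers, at 11.71, with vehicle spleens between 12.13 and 13.04. It was the highest of all 16 in the megakaryocyte and platelet sum, at 14.35, and the highest hypoxic spleen in the erythroid sum, at 15.46. The part of these other sums was not tested. Of the 7 B cell markers 1, Pax5, fell (limma), and the neutrophil sum ran from 13.2 to 14.9 in vehicle and from 12.8 to 16.1 in hypoxia, with 0 of 8 markers past the test and 4 at an unadjusted p under 0.05.

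All 7 falls remained without hypoxic replicate 4 except that of Ier5 1417613_at, and Egr3 then changed by -1.48. With the B cell sum as a covariate, a fit chosen after these samples were seen, 6 of the 7 remained and the change of Egr3 was -1.21 ± 0.11 (limma adjusted p = 5.61e-07), of Ier5 1460009_at -0.74 ± 0.09 and of Egr2 1427683_at -0.58 ± 0.09. Ier5 1417613_at did not pass in that fit, at -0.20 (adjusted p = 0.162). Among spleens numbered 1 to 4 none of the 7 passed, with Egr3 at -1.74 ± 0.41 (adjusted p = 0.0517) and the others' adjusted p up to 0.366. Among those numbered 5 to 8 all 7 passed, with Egr3 at -1.64 ± 0.19 (adjusted p = 0.000448). The labels do not say what the numbers stand for.

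**Figure D3:**
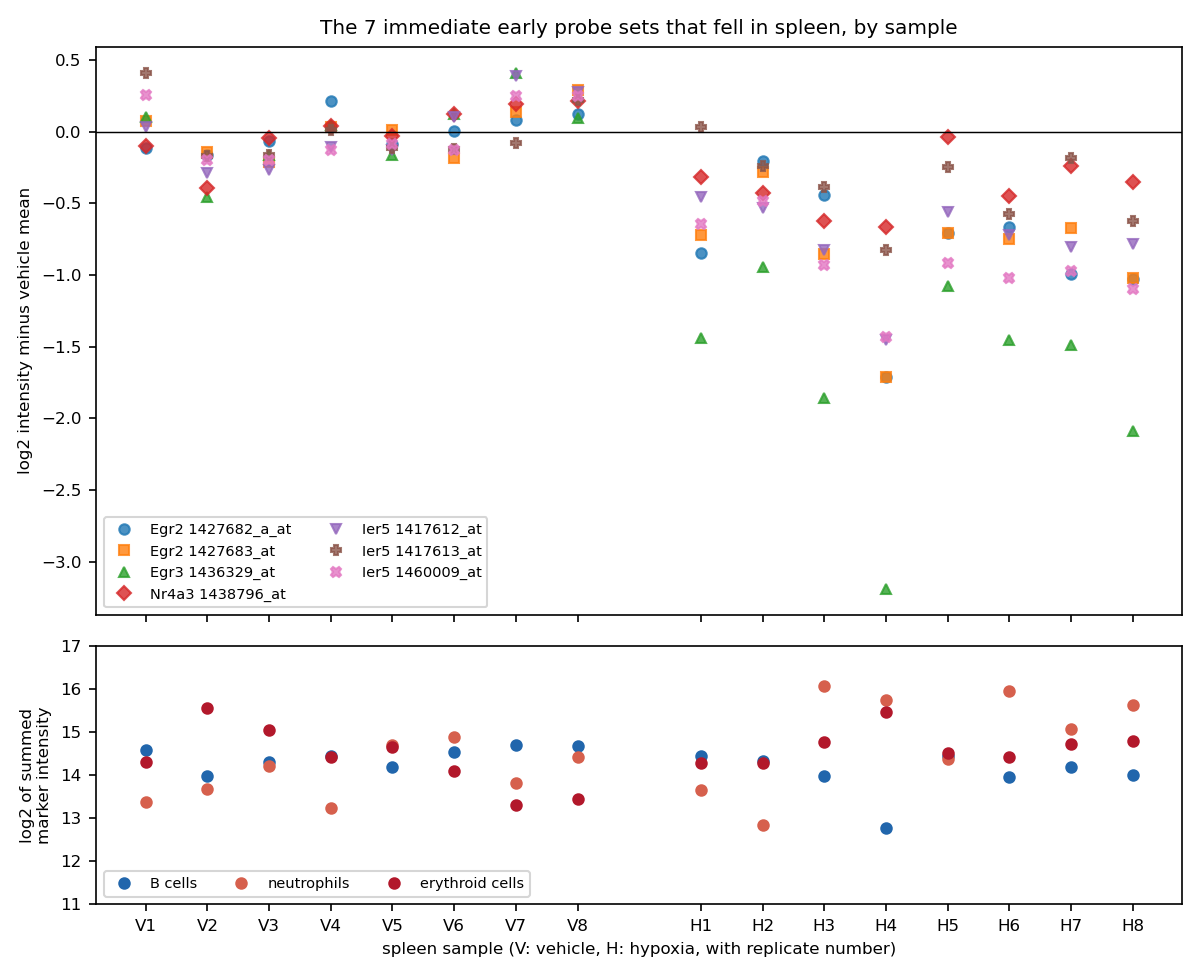
Upper panel: log2 intensity minus the vehicle mean (vertical axis) of the 7 probe sets that fell in spleen, in each of the 16 spleen samples (horizontal axis, V vehicle and H hypoxia, with replicate number). Lower panel: log2 of the summed intensity of B cell, neutrophil and erythroid markers in the same samples; hypoxic replicate 4 is the lowest of the hypoxic spleens on all 7 probe sets and has the lowest B cell sum, 12.8.

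The response was then compared between tissues by interaction contrasts in 1 limma fit of the 39 arrays in 6 groups, which share 1 estimate of the spread. Between liver and spleen 6 of the 20 probe sets differed, against 7.59% of all probe sets. Of these 6, both Egr2 probe sets, Egr3 1436329_at and Ier5 1460009_at were below the 30th percentile of level in liver. A fall there has little room. With dim probe sets left out, 2 of 12 differed between liver and spleen, against 2008 of 21584 over all probe sets kept. Between liver and bone marrow 3 of the 20 differed, against 1.94%, and between spleen and bone marrow 3, against 0.235%. The 2 sides of each contrast share no sample, but the 3 contrasts share their tissues' samples.

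Egr1 responded differently in liver and bone marrow, with the liver change lower by 2.46 ± 0.54 (interaction -2.46, adjusted p = 0.00635). The spleen change was also below that of bone marrow (interaction -1.71 ± 0.54), which did not pass in the fit of all tissues (adjusted p = 0.254) and did pass in a fit of spleen and bone marrow alone (adjusted p = 0.00046). Egr2 gave the smallest p of the 20 between spleen and bone marrow: -1.82 ± 0.21 for 1427682_a_at (adjusted p = 1.67e-06) and -1.47 ± 0.22 for 1427683_at (adjusted p = 0.000138). Between liver and spleen these differed by 0.95 ± 0.17 and 0.84 ± 0.17, with liver near 0.

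Egr3 1436329_at differed by 1.73 ± 0.27 between liver and spleen (adjusted p = 2.03e-05) and by -1.86 ± 0.34 between spleen and bone marrow (adjusted p = 0.00482). The latter ended in a fit of those tissues alone (adjusted p = 0.0802) and without bone marrow vehicle replicate 1 (0.0513). The liver reading of this probe set lies near the bottom of the scale, where a fall could not be seen. For Egr2 1427682_a_at the contrast of liver and bone marrow, -0.88 ± 0.21 (adjusted p = 0.0182), ended without bone marrow vehicle replicate 1, hypoxia replicate 2 or hypoxia replicate 3, with adjusted p up to 0.0881, and with the replicate number as a block (adjusted p = 0.0782). For 1427683_at the same contrast, -0.62, did not pass (adjusted p = 0.15), but did in a fit of those tissues alone (0.0360) and without spleen hypoxia replicate 4 (0.0338).

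Ier3 differed between liver and bone marrow by 2.18 ± 0.35 (adjusted p = 0.000126). Its larger rise in liver than in spleen, 0.72 ± 0.27, did not pass (adjusted p = 0.108). It was 0.88 without liver hypoxia replicate 1 (adjusted p = 0.0183) and 0.34 with an offset of 16 (adjusted p = 0.474). Its difference between spleen and bone marrow, 1.47 ± 0.35, fell just short (adjusted p = 0.0602). The latter passed when liver hypoxia replicate 1 or 3, bone marrow vehicle replicate 3 or spleen hypoxia replicate 1 or 2 was left out. Nr4a1 differed by 0.43 between liver and spleen, which did not pass (adjusted p = 0.115) without the block and did with it (adjusted p = 0.0239). The Ier5 probe set with a fall in all 3 tissues, 1417612_at, showed no difference past the test, with intervals from 0.00 to 0.65 for liver minus spleen, -0.16 to 0.68 for liver minus bone marrow and -0.49 to 0.35 for spleen minus bone marrow.

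**Figure D4:**
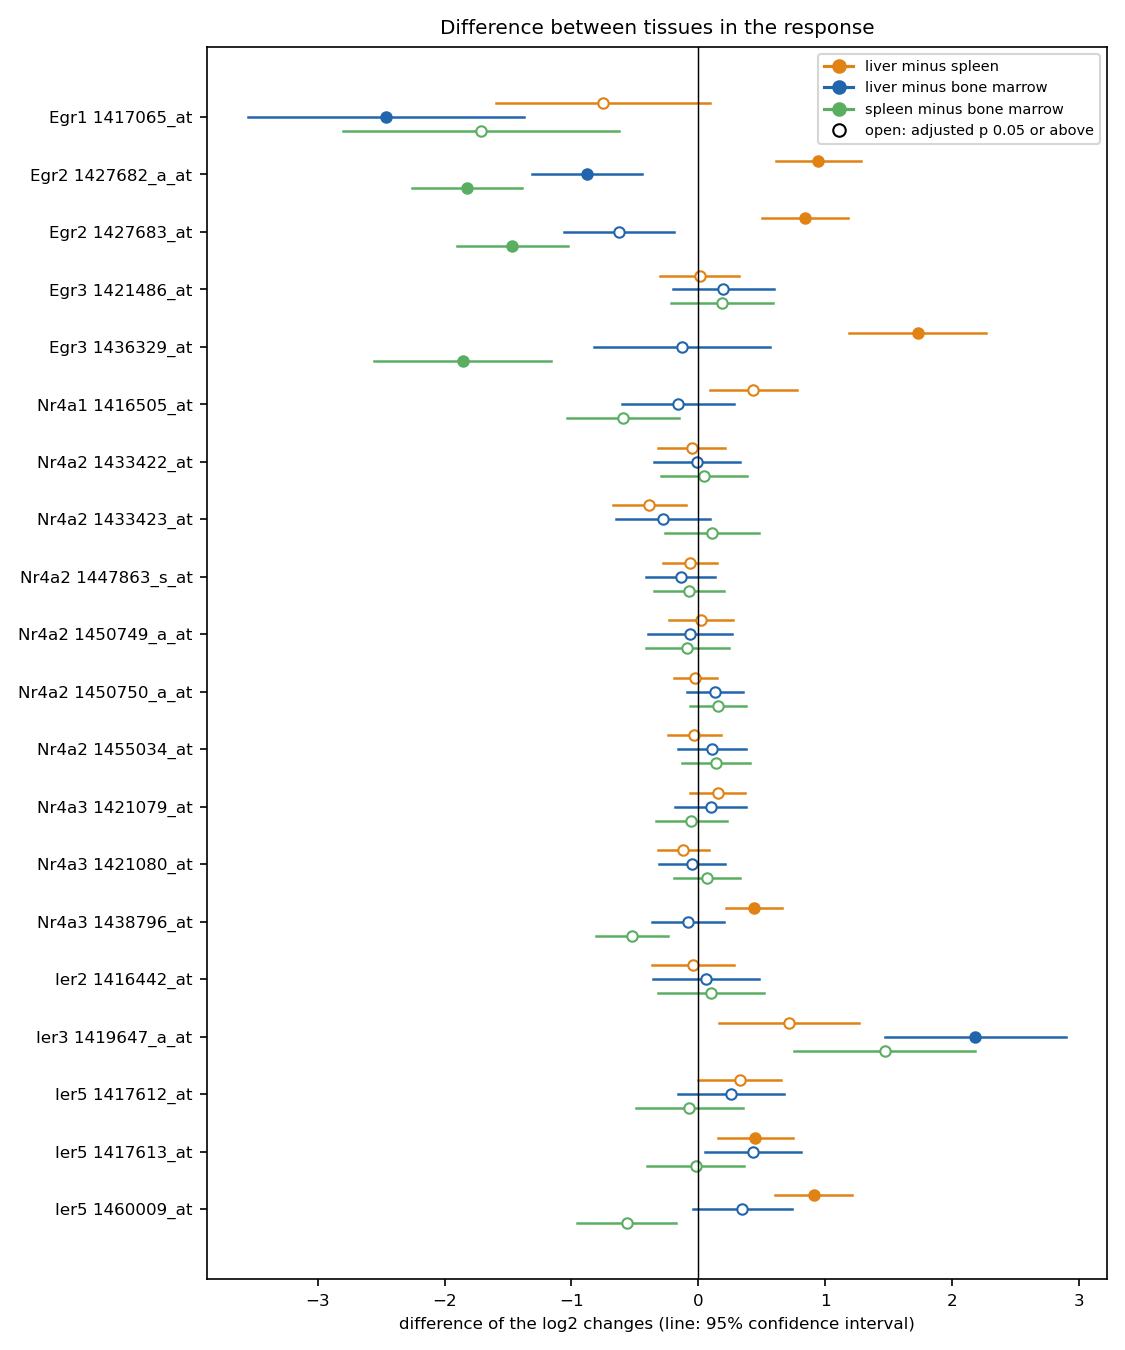
Difference between 2 tissues in the log2 change (horizontal axis, with 95% confidence interval) for each of the 20 probe sets (vertical axis); filled circles have an adjusted p under 0.05. Egr1 lies at -2.46 and Ier3 at 2.18 for liver minus bone marrow, while both Egr2 probe sets lie right of 0 for liver minus spleen and left of 0 for spleen minus bone marrow.

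Other genes of the same pathways were counted from 5 lists, each gene by its brightest probe set. Over all 18193 genes counted so, 2.67% rose and 4.91% fell in liver, 1.42% and 2.45% in bone marrow, and 4.86% and 8.85% in spleen. Of 36 AP-1 and other immediate early genes, 22 rose and 1 fell in liver, 12 rose and 1 fell in bone marrow, and 12 rose and 2 fell in spleen. The median change of that list was 0.73, 0.26 and 0.18 in the 3 tissues, against -0.02, 0.00 and -0.01 over all genes. Dusp1, a phosphatase that inactivates MAP kinases, rose by 2.36 in spleen, 3.01 in liver and 2.39 in bone marrow, and Fos, a subunit of AP-1, by 2.16, 2.03 and 1.65 in the same order.

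Of 17 measured genes for SRF, its ternary complex partners, CREB and their kinases, 2 rose (Mrtfb and Elk1) and 2 fell (Crtc3 and Creb1) in liver, 0 of either passed in bone marrow (limma; 6 at an unadjusted p under 0.05), and 6 fell in spleen. In spleen Ep300, a histone acetyltransferase, fell by 0.38, Creb1 by 0.37 and Cdk9, a kinase of transcription elongation, by 0.28. Among 18 partners of the IER proteins, Hsf2 fell in liver (-0.54) and in spleen (-0.30) and no other gene passed in any tissue.

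Of 19 EGR partners, feedback genes and targets, 4 fell in liver, 1 rose and 1 fell in bone marrow, and 4 rose and 6 fell in spleen. Nab2, the EGR corepressor that EGR factors themselves induce, fell by 1.18 in liver (-1.18 ± 0.20, limma adjusted p = 0.000688) and by 1.01 in spleen (-1.01 ± 0.12, limma adjusted p = 1.26e-05). In bone marrow, where Egr1 and 1 of the 2 Egr2 probe sets rose, Nab2 changed by -0.50 ± 0.12 (adjusted p = 0.0598). Id3 fell by 1.63 in liver and 1.16 in spleen, and Id2, its relative, rose by 1.06 in bone marrow and 0.63 in spleen and fell by 0.59 in liver. Of 19 NR4A partners and targets, 2 rose and 1 fell in liver, 2 rose in bone marrow, and 8 rose and 2 fell in spleen. G6pc, which encodes the glucose-6-phosphatase of glucose release, rose by 1.21 and Nfil3 by 1.04 in liver, where Osgin1 fell by 2.11. Cxcr4, a chemokine receptor, rose by 0.40 in bone marrow and by 1.03 in spleen.

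**Figure D5:**
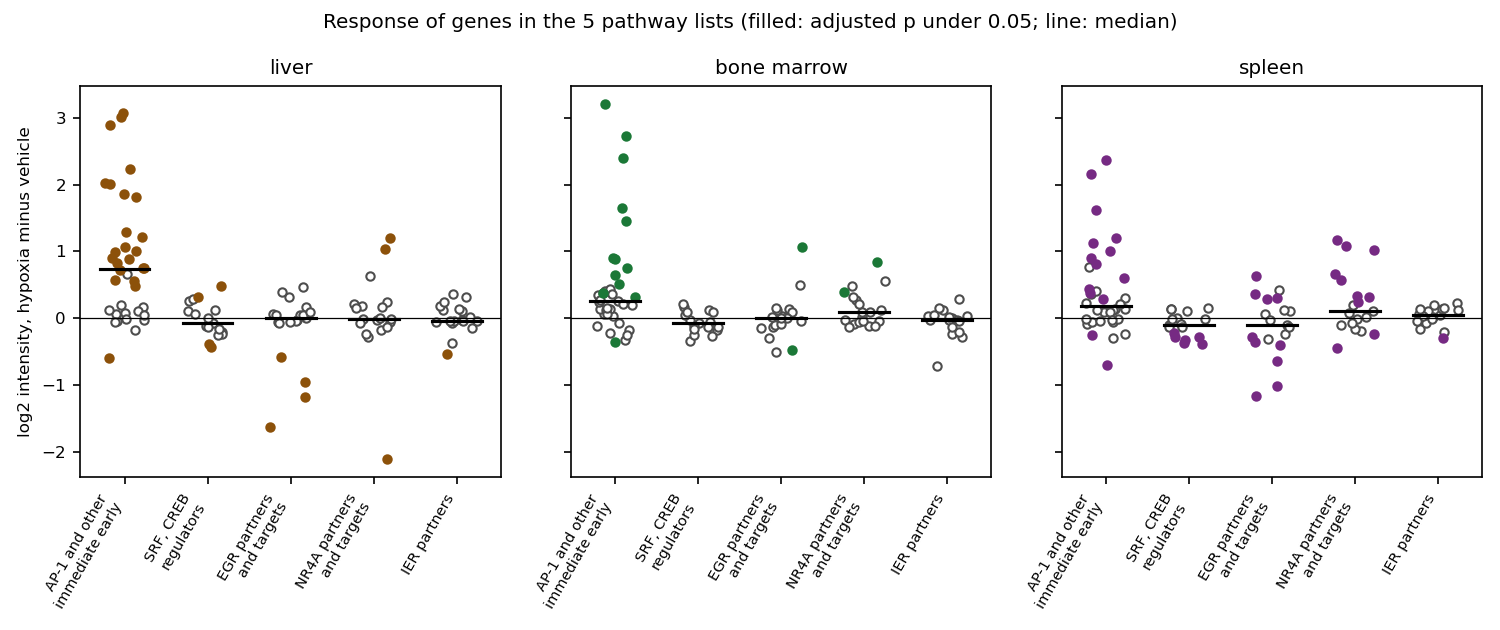
Change in log2 intensity (vertical axis) of each gene of 5 pathway lists (horizontal axis), in liver, bone marrow and spleen; filled circles have an adjusted p under 0.05 and the black line is the list's median. The AP-1 and other immediate early genes have medians of 0.73, 0.26 and 0.18, while the medians of the other lists lie between -0.11 and 0.11.

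The genes most like each of the 9 were those with the highest Pearson r over the 39 deviations from the group means, as a description. For Ier3 they were Plscr1 (0.82), Ldha (0.77), which encodes lactate dehydrogenase A, and Ddx28 (0.76). Egr2 was most like Tespa1 (0.83) and Trbv1 (0.82), which are T cell genes, and Egr3 1436329_at (0.81). For Ier5 they were Irf1 (0.84), an interferon regulatory factor, Rilpl2 (0.83) and Marchf1 (0.83), and for Egr1 Grk5 (0.76), Ypel2 (0.72) and the clock gene Cry1 (0.69). Nr4a1 was most like Zfp865 (0.86), Nr4a2 like Cenpf (0.75), Nr4a3 like 2610206C17Rik (0.74), Ier2 like Stard7 (0.76), and Egr3 by its probe set 1421486_at like Cysrt1 (0.90). Within the 16 liver samples alone, Ier3 was most like Tspan4 (0.90), Nr4a1 like Zdhhc14 (0.94) and Egr1 like Lonrf3 (0.84). These r values share arrays and their normalization, so they also carry array-wide shifts.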

How the data were processed

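The value table made for this work holds intensities of 45101 probe sets on a linear scale, from 5.78 to 43830, as the authors deposited them. The submitters' processing notes name RMA and limma without versions. The 64 control probe sets, 932 probe sets with several gene symbols and 9160 with none were not tested. The number of arrays limits the precision.

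Intensities were converted to log2 with no offset. Each tissue was fitted alone by the moderated linear model of limma (version 3.58.1, two-sided, run in R version 4.3.3 beside data.table in version 1.17.8), with Benjamini-Hochberg adjustment over 34945 probe sets and no covariate. Every adjusted p and standard error in the text comes from limma unless another test is named. The scripts were tested on simulated data. Control probe ratios were compared by exact permutation tests over samples. Tables, motif matches and figures were made in Python 3.11.15 with pandas 2.3.3, scipy 1.17.1 and matplotlib 3.10.9.

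The 9 genes, the pathway and marker lists and the tests were chosen with earlier results of these data known. Of 202 list entries 183 had a probe set, 5 of them through an older symbol. All probe sets of the 9 genes enter the counts and are named in the text. From each list the text draws on the 3 genes of smallest p in each tissue, but names only some of them. Left out are, for example, Sgk1 in liver and spleen and Per1 in bone marrow and spleen. Other named list genes, such as Id2, Fos and Creb1, were chosen after their values were seen. Likeness used probe sets above the 30th percentile of mean level.

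Same-numbered liver samples of both groups deviated together in all 8 pairs (r 0.117 to 0.464), so the number was taken to pair them, a hint from the data and not from the labels. Alternatives were the filters, normalizations, covariates, tests and left-out samples named in the closing section.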

Additional observations from a re-analysis of the deposited data

Results flagged for a closer look

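Of 100 groups with 4 to 10 samples, 1 held a sample far from the others. That is fewer than chance gives, which is about 1 group in 20. In it, hypoxic spleen replicate 4 read 9.08 for Ier5 1417612_at, and the nearest other sample 9.71. It was also the lowest in the B cell sum, whose part was not tested beyond the fit with that sum as a covariate. It was the lowest in the T and NK cell sum as well, whose part was not tested.

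The other results listed here are differences between tissues in the change, past an adjusted p of 0.05 in the limma interaction test. For liver minus spleen these were Egr2 1427682_a_at (0.95), Egr2 1427683_at (0.84), Egr3 1436329_at (1.73), Nr4a3 1438796_at (0.44), Ier5 1460009_at (0.91) and Ier5 1417613_at (0.45). The last was at adjusted p = 0.0499 and ended in 26 of 39 fits that left out 1 sample. For liver minus bone marrow they were Egr1 (-2.46), Ier3 (2.18) and Egr2 1427682_a_at (-0.88). For spleen minus bone marrow they were Egr2 1427682_a_at (-1.82), Egr2 1427683_at (-1.47) and Egr3 1436329_at (-1.86). In liver 1427682_a_at, 1427683_at, 1436329_at and 1460009_at lay below the 30th percentile of level, where a fall has little room.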

How the results depend on the processing

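Of 1008 comparisons of a probe set's change with its value under another setting, 983 stayed on their side of the threshold, 17 lost the call and 8 gained one. No change that passed turned its sign, while 32 that did not pass did, all of them of a size up to 0.07 at the setting reported. The count of rises in liver (2) was 1 with quantile normalization, with the exact Wilcoxon test and among numbers 5 to 8, where Nr4a1 did not pass. Falls in liver (1) were 2 with the replicate block, which added Egr1, and 0 among numbers 5 to 8. Rises in spleen (1) were 2 with the number set (1 to 4 or 5 to 8) as a term, which added Nr4a2 1433423_at. Falls in spleen (7) were 3 with 1 probe set per gene, by construction, and 0 among numbers 1 to 4. Differences between liver and spleen went from 6 higher to 2 when dim probe sets were left out, by construction, and to 7 higher (Nr4a1 added) and 1 lower (Nr4a2 1433423_at) with the block. For liver minus bone marrow the 2 lower were 1 without dim probe sets, 1 with the block and 3 in a fit of those tissues alone. For spleen minus bone marrow the 0 higher became 1, Ier3, in a fit of those tissues alone and with an offset of 16. Elsewhere the cause was not tested.

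Leaving out 1 sample gave 1 to 2 rises and 1 to 2 falls in liver, 1 to 3 and 0 to 2 in bone marrow, and 1 to 1 and 6 to 7 in spleen. It gave 5 to 7 higher and 0 to 1 lower for liver minus spleen, 1 to 1 and 1 to 3 for liver minus bone marrow, and 0 to 1 and 2 to 4 for spleen minus bone marrow.

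Over all probe sets, the 2620 calls in liver were 4157 with the replicate block, 4546 with the number set as a term and 1376 among numbers 1 to 4. The 5102 in spleen were 1290 among numbers 1 to 4, and the 1338 in bone marrow were 814, 423 and 514 without vehicle replicates 1, 2 and 3 and 395 and 508 without hypoxia replicates 2 and 3. The 82 for spleen minus bone marrow were 211 with an offset of 16 and 53 without dim probe sets. They were 46, 45 and 42 without bone marrow vehicle replicate 1 or 2 or hypoxia replicate 3, and 141 and 137 without spleen hypoxia replicate 2 or 5. The 678 for liver minus bone marrow were 379 and 407 without bone marrow vehicle replicate 1 or 2. In bone marrow and spleen the numbers did not pair the samples (1 of 3 and 2 of 8 pairs correlated above 0.1). The block there left spleen at 7 falls and ended the bone marrow call of Nr4a1 (adjusted p = 0.0537). Probe sets near the bottom of the scale limit what a fall in liver could show.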
